A study of Homo sapiens with 6 samples.

Results

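The cytosolic and mitochondrial heat shock chaperones, with their co-chaperones and the heat shock factors, were examined by RNA sequencing in VCaP cells after silencing of NEDD9. The genes were taken by symbol, without the chaperones of the endoplasmic reticulum, and comprised 46 genes on 47 of the 58735 rows of the count table, since 2 identifiers carry the symbol HSPA14. VCaP is an established human prostate cancer cell line with an androgen receptor and the TMPRSS2-ERG fusion. 3 shNEDD9 libraries came from cells stably infected with a short hairpin RNA against NEDD9, a scaffold protein of focal adhesions, and 3 shNTC libraries from cells infected with a non-targeting hairpin; both were grown in medium with 10% foetal bovine serum. The number of hairpin sequences and whether each line was a pool or 1 clone are not given in the sources used here. No label says that replicates were separate cultures, so the p-values cover the variation among 3 libraries a group, which could be technical.

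HSP70 proteins hold unfolded stretches of other proteins, J-domain proteins (the HSP40 class) hand clients to them, and HSP110 and BAG proteins release the bound nucleotide. HSP90 then matures kinases and steroid receptors, the androgen receptor among them, with the help of co-chaperones. TRiC is a ring-shaped chamber that folds actin and tubulin, and HSPD1 and HSPE1 form the corresponding chamber of the mitochondrial matrix. Heat shock factor HSF1 binds repeats of GAA in alternating orientation, called heat shock elements, in the promoters of many of these genes.

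Total counts were 5956486 to 9902002 in shNEDD9 and 3217276 to 7492244 in shNTC. NEDD9 itself stood at 137 ± 1.03 CPM (counts scaled to library size) in shNEDD9 and 356 ± 14.3 CPM in shNTC (SD, n = 3 each). All 10 markers of VCaP cells looked at were detected, from KRT18 (mean 156 CPM in shNEDD9 and 209.7 CPM in shNTC) to KLK2 (mean 11242 CPM in shNEDD9 and 9403 CPM in shNTC). The summed level of 5 fibroblast markers was 47.5 to 54.3 CPM in shNEDD9 and 26.1 to 32.4 CPM in shNTC. LUM made up most of it (45.2 ± 3.18 CPM in shNEDD9 and 19.2 ± 0.57 CPM in shNTC), whereas COL1A1 was lower (4.63 ± 0.64 CPM in shNEDD9 and 7.23 ± 2.25 CPM in shNTC). COL1A2, PDGFRB and DCN were below the count filter, were not tested and overlapped between the groups. COL1A2 had 2, 4 and 2 counts in shNEDD9, against 1, 9 and 21 in shNTC. PDGFRB had 0, 9 and 11 counts in shNEDD9, against 3, 1 and 2 in shNTC. DCN had 4 counts in each group. The summed level of 3 endothelial markers was 1.61 to 2.35 CPM in shNEDD9 and 1.21 to 2.83 CPM in shNTC. CDH5, an endothelial marker, and the immune markers CD3E and CD68 were at 0 in all libraries. The part of such markers in the results was not tested, and in bulk RNA fewer cells of a type and less RNA per cell cannot be told apart.

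After NEDD9 silencing the chaperone genes moved in both directions. The 5 members with the largest decreases were the small HSP gene HSPB8 (4.80-fold lower), the HSP70 genes HSPA1A (3.83-fold), HSPA1B (3.29-fold) and HSPA2 (3.10-fold, from few counts) and the J-domain gene DNAJB1 (2.53-fold). The constitutive HSP70 gene HSPA8 was 2.03-fold lower. Of the 9 cytosolic HSP70 and HSP110 rows 6 fell, as did both cytosolic HSP90 genes, whereas all 5 mitochondrial genes and all 8 TRiC subunit genes were higher. In the quasi-likelihood test of edgeR over all genes, with Benjamini-Hochberg adjusted p under 0.05 as the threshold of a call, 22 of the 47 rows rose in shNEDD9, 17 fell and 8 were not called. These 39 rows are 83.0% of the members, beside 71.4% of all 13958 genes tested (35.5% higher and 35.9% lower). With a change of at least 1.5-fold required as well, 10 rows were higher and 12 lower, or 46.8%, beside 35.8% of all genes (17.2% higher and 18.6% lower). Complete separation of shNEDD9 and shNTC libraries was seen in 38 of the 47 rows (21 higher and 17 lower), beside 71.8% of all genes (35.7% higher and 36.1% lower). The median log2 fold change was 0.08 over the members and 0.00 over all genes.

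**Figure D1:**
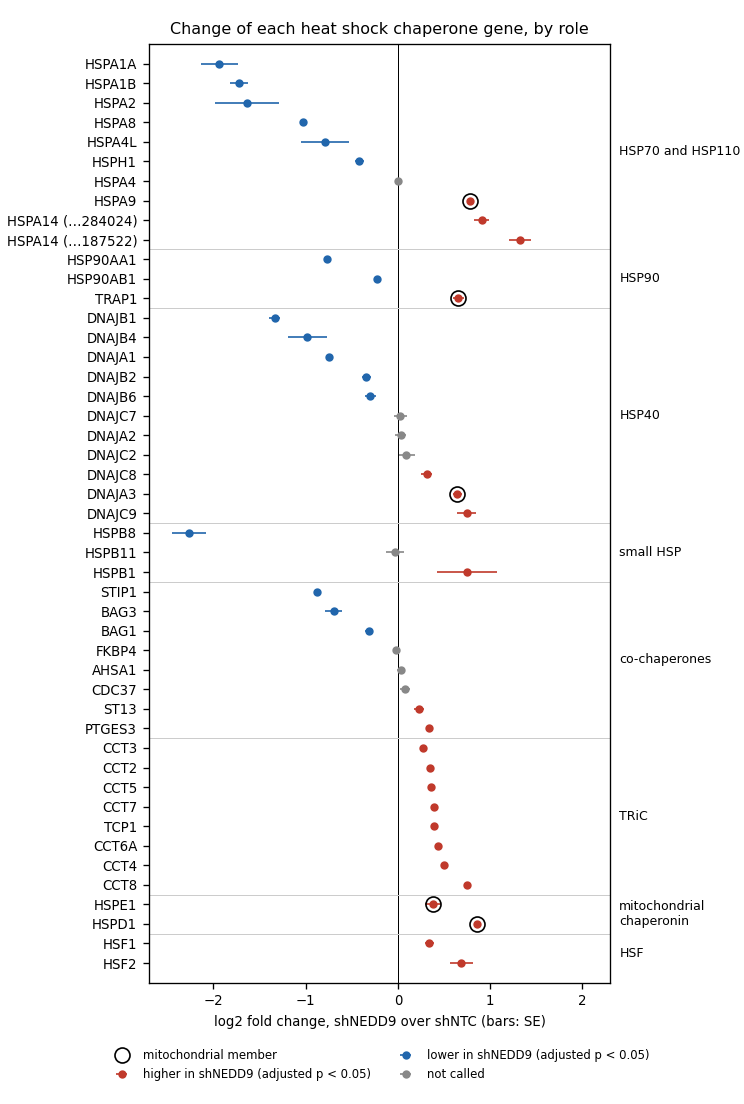
Log2 fold change of each member, shNEDD9 over shNTC, with its SE, ordered by role; colours give the call at an adjusted p under 0.05 and rings mark the 5 mitochondrial members. The 17 members that were lower lie among the HSP70, HSP90, HSP40, small HSP and co-chaperone classes, while all 8 TRiC genes and all 5 ringed genes lie right of 0.

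All 47 rows passed the filter on low counts. HSPA2 passed it only through its 3 shNTC libraries, so its call and separation were tied to the filter. The counts of rows that fell include it. The 17 rows that fell all belonged to the 34 cytosolic or nuclear rows outside TRiC, of which 9 rose. Beside this, 35.9% of all genes tested were called lower and 35.5% higher. These 34 rows leave out the 8 TRiC and 5 mitochondrial rows, which all rose. That the 34 rows hold every fall therefore follows from how they were chosen, and their sum carries the same choice. Within a library, the 34 rows together held 6993 to 7163 CPM in shNEDD9 and 9659 to 9758 CPM in shNTC. The 47 rows together held 12952 to 13174 CPM in shNEDD9 and 13638 to 13756 CPM in shNTC.

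**Figure D2:**
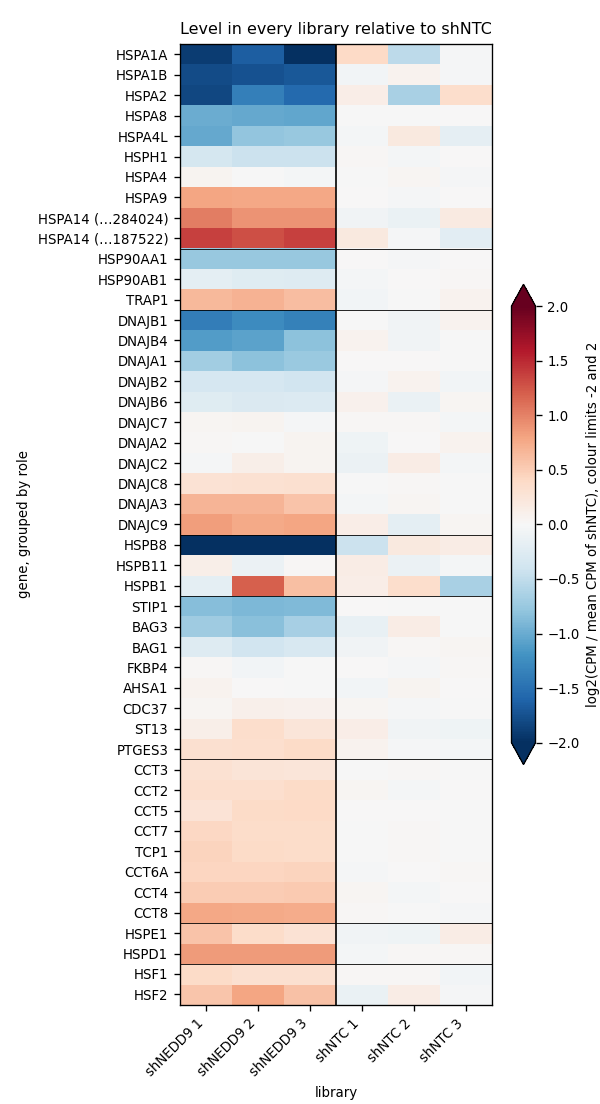
Level of each member in every library as log2 of its CPM over the mean CPM of shNTC, with the 3 shNEDD9 libraries left of the line and the 3 shNTC libraries right of it. Within each group the libraries share nearly one colour per gene, with visible scatter in the low-count genes HSPA1A, HSPA2 and HSPB1.

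Promoter stretches are shown here because heat shock elements are the shared control sequence known for this family. RefSeq promoter windows (GRCh38.p14, 250 bases before to 50 after each start) were matched for 40 of the 46 genes, on 55 windows, and there was no entry for CCT6A, FKBP4, HSF1, HSPA14, HSPB11 and ST13. An element of 3 units, in the order GAA, TTC, GAA or its reverse complement TTC, GAA, TTC, with any 2 bases between neighbouring units, was found on either strand in 6 of the 55 windows (10.9%) and in 172 of all 35116 windows of the table (0.490%). The 6 genes were HSPA8, HSP90AA1, HSP90AB1, DNAJA1 and DNAJB6, which fell, and HSPD1, which rose. The stretches that carry the element before the start are given on the gene strand, 5′ to 3′, with the GAA and TTC units of each element in capitals.
HSPA8 (chr11:123062159-123062386, minus strand): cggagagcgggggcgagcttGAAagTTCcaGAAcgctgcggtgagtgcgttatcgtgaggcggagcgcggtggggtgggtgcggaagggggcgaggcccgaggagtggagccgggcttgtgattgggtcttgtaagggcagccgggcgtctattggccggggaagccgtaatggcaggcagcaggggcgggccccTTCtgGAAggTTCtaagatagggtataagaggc
HSP90AA1 (chr14:102087100-102087152, minus strand): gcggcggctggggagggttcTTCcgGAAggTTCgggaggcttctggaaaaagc
HSP90AB1 (chr6:44247758-44247863, plus strand): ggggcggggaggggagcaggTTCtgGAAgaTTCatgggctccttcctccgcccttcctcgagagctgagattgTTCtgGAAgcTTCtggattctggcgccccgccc
DNAJB6 (chr7:157336853-157336905, plus strand): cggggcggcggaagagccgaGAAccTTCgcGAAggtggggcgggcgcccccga
HSPD1 (chr2:197500048-197500090, minus strand): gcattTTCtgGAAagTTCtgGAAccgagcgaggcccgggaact

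HSPA8 and HSP90AB1 each hold 2 separate elements, those of HSPA8 at -230 to -218 and -55 to -43, counted from the start as base 1. In HSPD1 the matches to both patterns overlap in 1 run of units from -245 to -228. The HSPD1 start of that window lies 539 bases from the start of its divergent neighbour HSPE1, and the run lies between these starts. Another HSPD1 window has its start at 197500274, nearer to the HSPE1 start at 197500379, and the run lies after that HSPD1 start. The DNAJA1 element lies just after the start and is not printed. A shorter match of 2 units (GAA then TTC, or TTC then GAA, with any 2 bases between), a motif added after the data were seen, was counted over the members with a promoter in the table. It occurred in 12 of 17 such genes that fell, in 6 of 17 that rose and in 0 of 6 not called. A gene was counted when any of its windows matched, and genes with more windows were not adjusted for. Over all tested genes with a promoter in the table it occurred in 13.9% of those lower, 13.5% of those higher and 13.2% of those not called. HSPA1A, HSPA1B, DNAJB1, DNAJB4, HSPB8, HSPA4L and STIP1 were among the genes that fell and had the 2-unit match without the 3-unit one. A match is a description of letters in the window, and binding was not measured.

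Within the HSP70 and HSP110 class, 6 of 10 rows fell and 3 rose, beside 35.9% of all genes lower and 35.5% higher. The rows that rose were HSPA9 and both rows that carry the symbol HSPA14. HSPA8 (ENSG00000109971, GRCh38 chromosome 11, 123057489 to 123063230), the constitutive cytosolic HSP70, had 1179, 1156 and 1142 CPM in shNEDD9, against 2348, 2337 and 2381 CPM in shNTC. Every shNEDD9 library was far below every shNTC library, and the log2 fold change was -1.02 (SE 0.02, edgeR adjusted p below 1e-300). HSPA1B (chromosome 6, 31827735 to 31830255), a stress-inducible HSP70, had 12.8, 13.1 and 13.6 CPM in shNEDD9, against 42.4, 46.2 and 43.5 CPM in shNTC. The groups lay wide apart, with a log2 fold change of -1.72 (SE 0.10, edgeR adjusted p = 6.81e-69). Its neighbour and near copy HSPA1A (chromosome 6, 31815464 to 31817946) had 2.69, 3.18 and 2.52 CPM in shNEDD9, against 13.2, 6.91 and 9.86 CPM in shNTC. The shNTC libraries of HSPA1A were spread, yet the lowest of them was above every shNEDD9 library (log2 fold change -1.94, SE 0.20, edgeR adjusted p = 2.02e-21).

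HSPA1A and HSPA1B cannot be separated well by reads, since 69.3% and 73.2% of their transcript windows of 75 bases occur letter for letter in a transcript of another gene, mainly each other. Summed to 1 row, they fell by 1.76 on the log2 scale (SE 0.09, edgeR adjusted p = 3.11e-87). The third gene of that locus, HSPA1L, which is best known from testis, was also lower (1.47 ± 0.56 CPM in shNEDD9 and 2.64 ± 0.30 CPM in shNTC, n = 3 each, edgeR adjusted p = 0.0224). HSPA1L rested on only 36 counts in shNEDD9 and 45 in shNTC. It shares transcript windows with HSPA1A and HSPA1B, so its reads may not be independent of theirs. HSPA6, an HSP70 gene that is nearly silent without stress, had 2, 1 and 0 counts in shNEDD9, against 19, 3 and 9 counts in shNTC. It was below the count filter, was not tested and was picked out after its values were seen, and its summed rate was 14.2-fold lower in shNEDD9 (exact 95% interval 4.44 to 72.8-fold, counting error only).

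HSPA2, an HSP70 of the male germ line, had 0.84, 1.14 and 1.01 CPM in shNEDD9, against 3.23, 1.89 and 3.76 CPM in shNTC, from 24 counts in shNEDD9 and 54 in shNTC. The groups did not overlap (log2 fold change -1.63, SE 0.35, edgeR adjusted p = 4.44e-06). All 3 shNTC libraries reached the count filter and 0 shNEDD9 libraries did, so HSPA2 had to differ in order to be tested. Neither the separation nor the p-value is support for its fall. HSP110 proteins act as nucleotide exchange factors of HSP70 and were unlike each other. HSPH1, the stress-inducible one, had 98.9, 94.4 and 93.8 CPM in shNEDD9, against 129.5, 123 and 127 CPM in shNTC, with no overlap (log2 fold change -0.42, SE 0.05, edgeR adjusted p = 8.79e-18). HSPA4L was low in both groups, with 2.18, 2.54 and 2.62 CPM in shNEDD9, against 4.30, 5.03 and 3.91 CPM in shNTC (log2 fold change -0.79, SE 0.26, edgeR adjusted p = 0.00402). HSPA4 had 272 ± 8.90 CPM in shNEDD9 and 272 ± 5.46 CPM in shNTC and was not called (edgeR adjusted p = 0.928).

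HSPA9, the HSP70 of the mitochondrial matrix (mortalin), had 1662, 1647 and 1640.3 CPM in shNEDD9, against 966, 946 and 967 CPM in shNTC. It was the most counted HSP70 row in shNEDD9, whereas HSPA8 was in shNTC, and it rose by 0.78 on the log2 scale (SE 0.02, edgeR adjusted p = 1.20e-248). HSPA14, an atypical HSP70 bound to ribosomes (ENSG00000187522, chromosome 10, 14838164 to 14871741), had 26.2, 24.8 and 26.2 CPM in shNEDD9, against 11.7, 10.1 and 8.76 CPM in shNTC. The rise was clear of the spread (log2 fold change 1.32, SE 0.12, edgeR adjusted p = 1.39e-27). The overlapping row ENSG00000284024, which the count table also calls HSPA14 and a later name table calls MSANTD7, had 51.9, 47.3 and 47.6 CPM in shNEDD9, against 24.3, 23.3 and 28.95 CPM in shNTC (log2 fold change 0.91, SE 0.08). Both rows summed gave a log2 fold change of 1.04 (SE 0.07), a sum chosen after the data were seen. If the later name holds, that sum mixes HSPA14 with another gene. The row ENSG00000284024 is then counted with the HSP70 class by its symbol alone, in the calls and in the sums.

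Both cytosolic HSP90 genes fell, by unlike amounts. HSP90AA1 (chromosome 14, 102080738 to 102139699), the stress-inducible isoform, had 679, 682 and 679.9 CPM in shNEDD9, against 1163, 1140.2 and 1158 CPM in shNTC (log2 fold change -0.76, SE 0.02, edgeR adjusted p = 5.22e-219). HSP90AB1 (chromosome 6, 44246166 to 44253888), the constitutive isoform, had 2017, 1963 and 1926 CPM in shNEDD9, against 2256, 2322 and 2354 CPM in shNTC. Its groups did not overlap either, although the difference was only 1.17-fold (log2 fold change -0.23, SE 0.02, edgeR adjusted p = 8.95e-27). Per kilobase of all annotated exons, the level of HSP90AB1 was 4.99 to 5.23 times that of HSP90AA1 in the shNEDD9 libraries. In the shNTC libraries it was 3.41 to 3.59 times that of HSP90AA1. TRAP1, the HSP90 of mitochondria, went the other way, with 94.0, 97.0 and 92.2 CPM in shNEDD9, against 57.4, 59.7 and 62.8 CPM in shNTC (log2 fold change 0.65, SE 0.06, edgeR adjusted p = 4.04e-29). Of its transcript windows, 17.6% occur also in transcripts of the neighbouring gene DNASE1.

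The J-domain class had 5 genes lower, 3 higher and 3 not called of 11. The 72.7% called were close to the 71.4% of all genes tested. DNAJB1 (chromosome 19, 14514770 to 14529770), the main stress-inducible partner of HSP70, had 45.3, 49.1 and 46.3 CPM in shNEDD9, against 117, 112 and 124 CPM in shNTC. All 3 shNEDD9 libraries had less than any shNTC library, at a log2 fold change of -1.34 (SE 0.06, edgeR adjusted p = 1.51e-120). DNAJA1, a farnesylated partner of HSPA8, had 214, 197 and 208 CPM in shNEDD9, against 347, 348 and 343 CPM in shNTC (log2 fold change -0.75, SE 0.03, edgeR adjusted p = 2.89e-111). DNAJB4 was low in both groups, with 3.19, 3.31 and 3.93 CPM in shNEDD9, against 7.26, 6.60 and 6.89 CPM in shNTC (log2 fold change -0.98, SE 0.21). DNAJB2 and DNAJB6, which keep aggregation-prone proteins soluble, fell by 0.34 (SE 0.05) and 0.30 (SE 0.06) on the log2 scale. DNAJB2 had 91.2 ± 1.599 CPM in shNEDD9 and 116 ± 5.43 CPM in shNTC, and DNAJB6 had 61.6 ± 1.07 CPM in shNEDD9 and 74.2 ± 5.87 CPM in shNTC (SD, n = 3 each), and neither overlapped between the groups.

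The 3 J-domain genes that rose were DNAJA3, DNAJC9 and DNAJC8. DNAJA3, the mitochondrial J-domain protein, had 130.1, 130.0 and 121 CPM in shNEDD9, against 79.3, 83.9 and 81.1 CPM in shNTC (log2 fold change 0.64, SE 0.05, edgeR adjusted p = 2.12e-36). DNAJC9, a histone co-chaperone of the nucleus, had 28.9, 27.2 and 27.8 CPM in shNEDD9, against 17.8, 14.1 and 16.6 CPM in shNTC. It rose by 0.75 on the log2 scale (SE 0.10), and 22.5% of its transcript windows occur in other genes, its antisense neighbour included. DNAJC8, which is linked to splicing, rose by 0.31 (SE 0.06). DNAJA2 (78.1 ± 1.84 CPM in shNEDD9 and 76.9 ± 4.08 CPM in shNTC, n = 3 each), DNAJC7 and the ribosome-associated DNAJC2 were not called, with log2 fold changes of 0.03, 0.03 and 0.09 (edgeR adjusted p of 0.658, 0.753 and 0.381).

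Small HSPs bind unfolding proteins without ATP. HSPB8 (chromosome 12, 119178642 to 119221131), which works with BAG3 in clearing misfolded proteins by autophagy, had 2.52, 2.80 and 3.33 CPM in shNEDD9, against 11.03, 17.0 and 16.4 CPM in shNTC. This was the largest change of any member, with a log2 fold change of -2.26 (SE 0.18, edgeR adjusted p = 3.65e-34), on 70 counts in shNEDD9 and 241 in shNTC. BAG3 had 21.7, 19.8 and 22.3 CPM in shNEDD9, against 32.0, 39.0 and 35.1 CPM in shNTC, with no overlap (log2 fold change -0.70, SE 0.09, edgeR adjusted p = 1.78e-13). HSPB1 (HSP27) had 1.51, 3.94 and 2.62 CPM in shNEDD9, against 1.88, 2.20 and 1.10 CPM in shNTC. These groups overlapped and rested on 66 counts in shNEDD9 and 28 in shNTC. HSPB1 was called at a log2 fold change of 0.75 (SE 0.33, edgeR adjusted p = 0.0297), and the call ended without shNEDD9 replicate 2 (log2 fold change 0.42, edgeR adjusted p = 0.328), without shNTC replicate 3 (0.48, edgeR adjusted p = 0.236) and with 4 other settings. HSPB11, named with the family but a subunit of the transport machinery of cilia, had 23.8 ± 1.83 CPM in shNEDD9 and 23.6 ± 2.34 CPM in shNTC and was not called (edgeR adjusted p = 0.815).

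Co-chaperones had 3 genes lower, 2 higher and 3 not called of 8. The 62.5% called were below the 71.4% of all genes tested. STIP1 (HOP), which bridges HSP70 and HSP90, had 567, 546 and 554 CPM in shNEDD9, against 1029.8, 1014 and 1021 CPM in shNTC. The groups were far apart, at a log2 fold change of -0.88 (SE 0.02, edgeR adjusted p = 7.54e-272). BAG1, a nucleotide exchange factor, fell by 0.31 on the log2 scale (SE 0.05), with 106, 96.5 and 101 CPM in shNEDD9 and 119.7, 128 and 129.6 CPM in shNTC. PTGES3 (p23), which stabilises the closed state of HSP90, had 443, 448 and 465 CPM in shNEDD9, against 373, 350.3 and 346 CPM in shNTC (log2 fold change 0.34, SE 0.03, edgeR adjusted p = 1.86e-30). ST13 (HIP), which slows the release of HSP70 clients, rose by 0.23 (SE 0.05), although its groups overlapped and 18.2% of its transcript windows occur in other genes, mostly pseudogenes. FKBP4 (FKBP52), which joins steroid receptor complexes, AHSA1, which activates the HSP90 ATPase, and CDC37, which brings kinases to HSP90, were not called. Their log2 fold changes were -0.02, 0.03 and 0.08, and each SE was between 0.03 and 0.05. FKBP4 stood at 468 ± 13.9 CPM in shNEDD9 and 472 ± 6.41 CPM in shNTC, and AHSA1 at 166 ± 4.47 CPM in shNEDD9 and 163 ± 6.71 CPM in shNTC. CDC37 had 84.8 to 88.4 CPM in shNEDD9 and 81.4 to 84.3 CPM in shNTC, so that its groups did not overlap although it missed the threshold (edgeR adjusted p = 0.192).

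Every TRiC subunit gene rose, and in each of the 8 the groups did not overlap. Of all genes tested, 35.5% were called higher and 35.7% were higher without overlap. CCT8 changed most, with 705, 698 and 697 CPM in shNEDD9, against 420.0, 414 and 409.9 CPM in shNTC (log2 fold change 0.75, SE 0.03, edgeR adjusted p = 4.38e-167), and it alone reached 1.5-fold. CCT4 followed at 0.50, CCT6A at 0.44, TCP1 and CCT7 at 0.39, CCT5 at 0.36, CCT2 at 0.35 and CCT3 at 0.27, each with an SE of 0.03. CCT3, the smallest rise, had 466, 452 and 449 CPM in shNEDD9, against 378, 383 and 375 CPM in shNTC. The libraries of a group lay close together for CCT6A, with 403, 405 and 405 CPM in shNEDD9 and 293, 300.4 and 304 CPM in shNTC, and for CCT4, with 339, 338 and 342 CPM in shNEDD9 and 245, 232 and 240.1 CPM in shNTC. CCT5 was more spread in shNEDD9, at 328 ± 15.3 CPM, than in shNTC, at 257 ± 1.43 CPM. Per kilobase, the subunit genes reached 56.2 (CCT5) to 209.5 RPKM (CCT8) in shNEDD9 and 43.9 (CCT5) to 124 RPKM (CCT8) in shNTC. Of the transcript windows of CCT5, 27.6% occur in another gene. Summed over the 8 genes, TRiC held 3406, 3378 and 3396 CPM in shNEDD9 and 2496, 2483 and 2475 CPM in shNTC, a ratio of 1.37.

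The mitochondrial chaperonin genes rose as well. HSPD1 (HSP60, chromosome 2, 197486581 to 197516737) had 674, 669 and 673 CPM in shNEDD9, against 361, 377 and 379 CPM in shNTC. Its log2 fold change was 0.86 (SE 0.03, edgeR adjusted p = 5.99e-205). HSPE1 (HSP10), its lid, had 45.1, 39.3 and 37.3 CPM in shNEDD9, against 29.2, 28.6 and 33.6 CPM in shNTC. The HSPE1 groups were apart but close, with a log2 fold change of 0.38 (SE 0.08, edgeR adjusted p = 8.81e-06), and 18.02% of its transcript windows occur in other genes, HSPD1 included.

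Sums of CPM within a library were set by the most abundant genes. The 9 cytosolic HSP70 and HSP110 rows together held 1656, 1614 and 1593 CPM in shNEDD9 and 2846, 2832 and 2875 CPM in shNTC, a ratio of 0.569. HSPA8 set this ratio: the other 8 rows together held 477, 458 and 451 CPM in shNEDD9 and 498, 495 and 494 CPM in shNTC, a ratio of 0.932. The 5 mitochondrial genes together held 2605, 2582 and 2563 CPM in shNEDD9 and 1493, 1495 and 1523 CPM in shNTC, a ratio of 1.72, and without HSPA9 the other 4 gave the same ratio of 1.72. The mitochondrial sum was 1.57 to 1.61 times the cytosolic HSP70 sum, HSPA8 included, in every shNEDD9 library and 0.525 to 0.530 times in every shNTC library. The 2 cytosolic HSP90 genes together stood at 2649 ± 45.3 CPM in shNEDD9 and 3465 ± 46.5 CPM in shNTC (SD, n = 3 each).

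**Figure D3:**
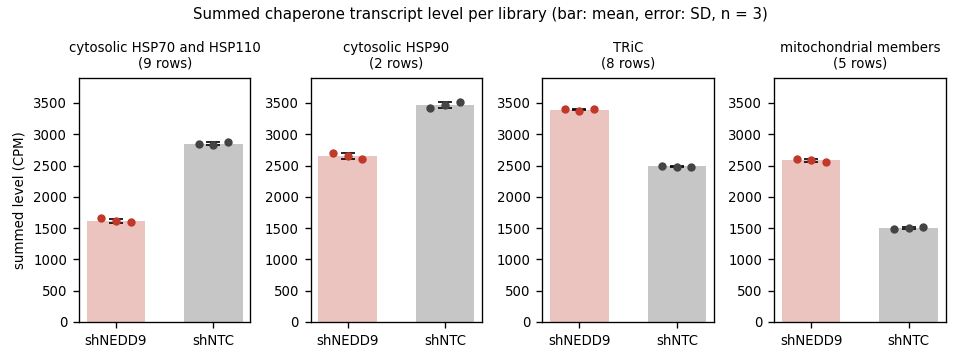
Summed CPM of 4 groups of members in each library (points), with the mean (bar) and SD (error bar) of 3 libraries per group. The shNEDD9 points lie below all shNTC points for the cytosolic HSP70 and HSP90 genes and above all of them for TRiC and the mitochondrial genes.

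Levels were compared between genes as RPKM, which is CPM per kilobase of exon, with exon lengths from GENCODE. The length of a gene is that of all its annotated exons merged, not of an expressed transcript. Ranks and ratios between genes depend on this choice. HSP90AB1 was highest in both groups, at 661 ± 15.3 RPKM in shNEDD9 and 775 ± 16.8 RPKM in shNTC, followed by HSPA8 at 239 ± 3.85 RPKM in shNEDD9 and 486 ± 4.69 RPKM in shNTC. Below them the order differed between the groups. CCT8 (209.5 ± 1.40 RPKM), HSPA9 (199.8 ± 1.34 RPKM) and HSPD1 (158 ± 0.58 RPKM) came next in shNEDD9. In shNTC the next were HSP90AA1 (219.9 ± 2.33 RPKM) and STIP1 (219.4 ± 1.68 RPKM), which did not differ beyond their spread, and then DNAJA1 (127 ± 1.004 RPKM) and CCT8 (124 ± 1.52 RPKM). Per kilobase, HSPA9 was at 0.828 to 0.844 times the level of HSPA8 in the shNEDD9 libraries and at 0.238 to 0.242 times in the shNTC libraries. The lowest members were HSPA2 and HSPA4L, at 0.17 and 0.21 RPKM in shNEDD9 and 0.51 and 0.38 RPKM in shNTC.

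**Figure D4:**
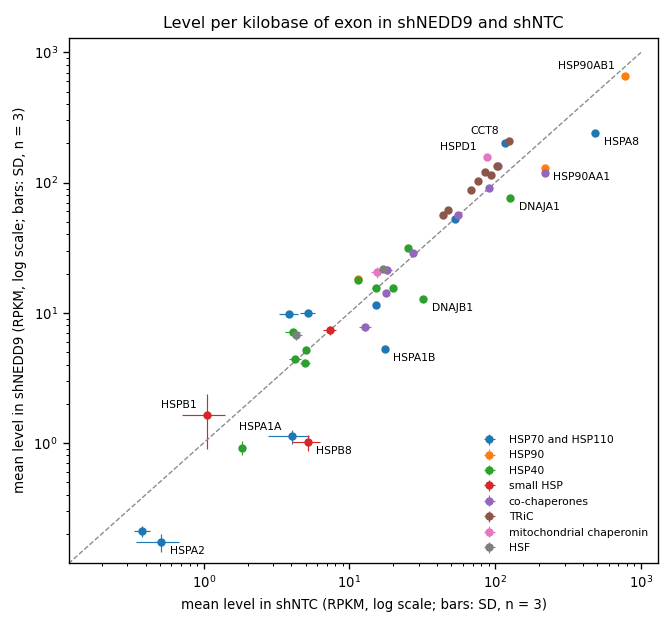
Mean level of each member per kilobase of exon in shNEDD9 (vertical axis) and shNTC (horizontal axis), both on log scales, with SD over 3 libraries and colours by role. HSP90AB1 is highest in both groups, HSPA8, HSP90AA1, DNAJA1 and DNAJB1 lie below the line of equal level, and CCT8 and HSPD1 lie above it.

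Both heat shock factor genes rose. HSF1 (ENSG00000185122, chromosome 8, 144291591 to 144314722) had 117, 113 and 113 CPM in shNEDD9, against 92.1, 92.1 and 86.7 CPM in shNTC (log2 fold change 0.34, SE 0.05, edgeR adjusted p = 3.00e-11). HSF2 had 17.1, 20.2 and 17.5 CPM in shNEDD9, against 10.6, 12.9 and 11.4 CPM in shNTC, with no overlap (log2 fold change 0.69, SE 0.13, edgeR adjusted p = 1.26e-07). HSF1 is controlled largely at the protein level, which was not measured.

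Chromosome position was set beside each change as the median log2 fold change of the 20 nearest tested genes. For STIP1 on chromosome 11 this median was -1.06 and 18 of the 20 neighbours fell, so its log2 fold change of -0.88 was no larger than that of its surroundings. CCT6A, at 0.44, lay beside a median of 0.42 with 13 of 20 neighbours higher, and CCT8, at 0.75, beside 0.30 with 11 of 20 higher. CCT4, at 0.50, lay beside a median of -0.10 with 5 of 20 higher. For the largest decreases the median of the neighbours was -0.04 for HSPB8, 0.13 for HSPA1A, HSPA1B and DNAJB1, -0.07 for HSPA8 and 0.26 for HSPA2. Of the 20 neighbours, 8 were also called lower for each of HSPB8, HSPA1A, HSPA1B and HSPA2, and 6 for DNAJB1 and HSPA8. Over all genes tested, 35.9% were called lower and 35.5% higher. The neighbours of HSPA1A and HSPA1B included each other and HSPA1L, which were all called lower. HSPH1 fell beside a median of 0.48, with 4 of 20 neighbours lower. HSPD1 rose beside a median of 0.22 with 10 of 20 higher, and HSPA9 beside 0.10 with 8 of 20 higher. TRAP1 and DNAJA3, both on chromosome 16, had medians of 0.05 and -0.04, with 4 and 5 of 20 neighbours higher.

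**Figure D5:**
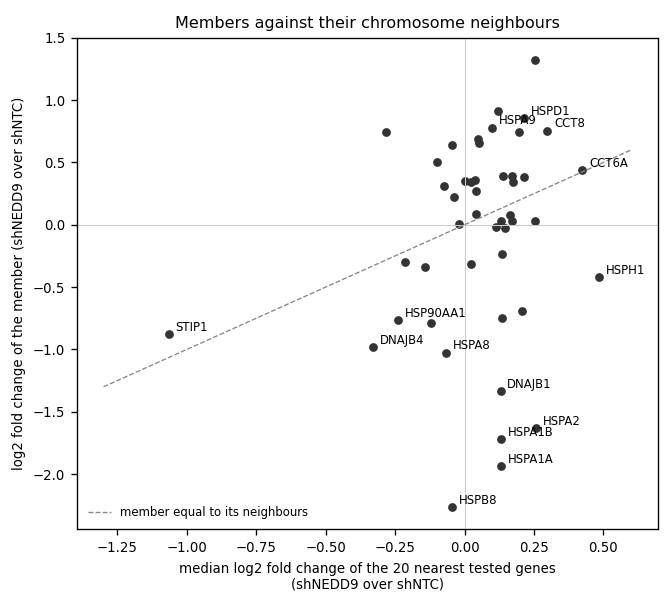
Log2 fold change of each member (vertical axis) against the median log2 fold change of the 20 nearest tested genes (horizontal axis), shNEDD9 over shNTC; the dashed line marks equality. STIP1 lies near the line at a neighbour median of -1.06, while HSPB8, HSPA1A, HSPA1B, HSPA2 and DNAJB1 lie far below it.

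Genes of the same systems outside the members were read from 6 lists, beside 35.5% of all genes called higher and 35.9% lower. In mitochondrial proteostasis, 10 of 12 tested genes rose and 1 fell, and the median was 0.57 on the log2 scale. GRPEL2, a nucleotide exchange factor of HSPA9, had 95.04 ± 4.28 CPM in shNEDD9 and 25.8 ± 1.64 CPM in shNTC (n = 3 each, 3.74-fold higher, edgeR adjusted p = 1.55e-155). TIMM44, which ties HSPA9 to the import channel, rose 2.23-fold (64.7 ± 0.97 CPM in shNEDD9 and 29.1 ± 0.91 CPM in shNTC), whereas SPG7, a protease subunit of the inner membrane, was 1.35-fold lower. Among other J-domain genes 5 rose and 11 fell of 24 (median -0.14). DNAJC4 fell by 1.09 on the log2 scale, with 44.6 ± 1.81 CPM in shNEDD9 and 95.9 ± 5.44 CPM in shNTC, while DNAJC17 rose by 0.59 and HSCB, which serves iron-sulphur cluster assembly in mitochondria, by 0.56. DNAJC4 (chromosome 11, 64230278 to 64234286) lies close to STIP1 (64185272 to 64204543), whose 20 neighbours had a median log2 fold change of -1.06. Whether DNAJC4 fell beyond its surroundings was not tested. DNAJC15 was called lower at a log2 fold change of -0.92 (edgeR adjusted p = 0.0182), but its groups overlapped and it rested on 27 counts in shNEDD9 and 37 in shNTC.

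Of 25 other co-chaperones of HSP90 and HSP70, 13 rose and 3 fell (median 0.08). The largest rises were those of RUVBL1 (132 ± 5.97 CPM in shNEDD9 and 65.6 ± 4.92 CPM in shNTC) and RUVBL2 (161 ± 8.40 CPM in shNEDD9 and 83.4 ± 4.22 CPM in shNTC), ATPases of the R2TP complex that works with HSP90, at log2 fold changes of 0.99 and 0.95. UNC45A, a myosin co-chaperone, fell by 0.41 and TTC1 by 0.29. In the prefoldin and tubulin folding list, whose prefoldin subunits pass clients to TRiC, 8 of 18 rows rose and 4 fell (median 0.11), led by UXT (0.84) and PDRG1 (0.73) upward and by URI1 (-0.46) and TBCC (-0.31) downward. Only 3 of 12 rows of other HSP70 and small HSP genes passed the filter, and of these HSPA1L fell and HSPA12B was higher at 1.78 ± 0.07 CPM in shNEDD9 and 0.64 ± 0.17 CPM in shNTC. HSPA12B passed the filter only through its 3 shNEDD9 libraries and had 11 counts in all of shNTC, so it had to differ in order to be tested.

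The list of HSF regulators and heat-shock-induced genes that are not chaperones had 3 genes higher and 5 lower of 12 tested (median -0.18). DEDD2 had 26.3 ± 0.74 CPM in shNEDD9 and 39.4 ± 3.50 CPM in shNTC (SD, n = 3 each) and fell by 0.58 on the log2 scale. MRPL18, a mitochondrial ribosomal protein gene, rose by 0.44, and IER5, at 6.02 ± 1.18 CPM in shNEDD9 and 3.90 ± 0.96 CPM in shNTC, rose by 0.58. Over the 6 lists together, 40 of 94 tested rows rose and 25 fell, and their median log2 fold change was 0.05. The 69.1% called were near the 71.4% of all genes tested. By list the share was 64.0% to 66.7%, except 91.7% in mitochondrial proteostasis.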

How the data were processed

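The authors deposited a table of whole-number counts of reads per gene, without normalisation. STAR 2.5.3a, Subread 1.6.2, featureCounts, cutadapt 1.9 and FastQC 0.11.5 were used, per the submitters' processing notes, which list the builds hg19 and GRCh38 without their role. Libraries were made from total RNA with a stranded kit, per the labels' protocols. The strand and multi-mapping settings are not given in the sources used here, so reads of overlapping or near-identical genes may be mixed, split or dropped. All 58735 identifiers occur in GENCODE release 29 (GRCh38), which gave coordinates and exon lengths, and 1 row without an identifier was left out.

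Groups follow the sample titles. Counts were tested with edgeR 4.0.16 (glmQLFit, robust, and glmQLFTest, R 4.3.3) with TMM factors (0.993 to 1.01) after filterByExpr with a minimum count of 10. p-values were adjusted over 13958 genes, and an adjusted p under 0.05 is a call. SE is the unmoderated log2 fold change over the square root of F. A count of 3 equals 0.303 to 0.932 CPM. Pairs of replicates gave a chi-square of 1.14 to 1.20 per degree of freedom, above sampling noise, so none was merged. The common coefficient of variation beyond counting noise was only 1.65%, a spread that could be technical. The fit was tested on simulated data. The members and lists were chosen with earlier results of these data known. All members are accounted for. From each other list, the changed genes with the 2 largest rises and 2 largest falls at a mean of at least 1 CPM are named, except 1 gene that is not reported here. Same-numbered replicates were not paired by the labels. The alternatives were other scalings and filters, DESeq2 1.42.0, limma-voom (limma 3.58.1), a replicate block, summed rows of copies and pseudogenes, and each library left out.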

Additional observations from a re-analysis of the deposited data

How the results depend on the processing

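The member counts of 22 higher and 17 lower were 21 to 22 and 17 to 17 over the 15 refits, and at 1.5-fold 9 to 10 higher and 12 to 12 lower. The exception throughout was HSPB1, whose call ended with DESeq2 (log2 fold change 0.71, adjusted p = 0.189), limma-voom (0.66, adjusted p = 0.0663), no count filter (0.77, edgeR adjusted p = 0.0573) and the replicate block (0.61, edgeR adjusted p = 0.0903), and ranged from 0.42 to 0.96 with 1 library left out. With the replicate number as a block, 21 members were higher and 17 lower. Same-numbered libraries did not deviate together (r of -0.03, 0.01 and 0.03 over 9972 genes). Replicates differed little beyond counting noise, so these values show no pairing but cannot exclude it. Members not called changed sign around 0: FKBP4 was 0.0059 without a count filter and HSPB11 0.012 with the replicate block. With 1 library left out the log2 fold changes ranged from -0.011 to 0.034 for HSPA4, -0.069 to 0.071 for HSPB11, -0.029 to 0.0087 for FKBP4, -0.0044 to 0.048 for AHSA1, -0.024 to 0.075 for DNAJA2 and -0.0012 to 0.059 for DNAJC7. The other lists had 34 to 41 rows higher and 20 to 25 lower. Rows of numbered pseudogenes held at most 2.08% of the counts of a member and themselves, and adding them changed no call. Apart from HSPA1A, HSPA1B, CCT5, DNAJC9, ST13, HSPE1, TRAP1 and HSPA14, at most 9.30% of a member's transcript windows occur in another gene. Depth limits HSPA2, HSPB1, HSPA4L and HSPA6, which rest on few counts. It also limits the fold sizes of HSPA1A, HSPB8 and DNAJB4, with 66, 70 and 84 counts in shNEDD9. The number of shared windows depends on the window of 75 bases, since the read length is not given in the sources used here.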
